A study of Mus musculus with 6 samples.

Results

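Interferon regulatory factors (IRFs) are transcription factors that share a helix-turn-helix DNA-binding domain and bind GAAA repeats in the promoters of interferons and of genes that interferons induce. The genes described here are Irf1, Irf2, Irf3, Irf4, Irf5, Irf7 and Irf8, 7 of the 18182 genes in the tables, chosen by symbol; Irf9, which works inside the STAT complex that type I interferons activate, is not among them. RNA was sequenced from Lewis lung carcinoma cells carrying a red fluorescent protein (LLC-RFP), a transplantable mouse lung cancer line, that had grown under the skin of wild-type C57BL/6 mice. In 3 libraries the LLC-RFP cells had been injected alone (LLC alone), and in 3 libraries together with murine bone marrow-derived mesenchymal stem cells (LLC with BMSCs). Fluorescent cells were sorted from the primary tumours of both groups by flow cytometry. The host mice were immunocompetent, the study states age and sex only for the mice of a separate experiment with luciferase-bearing LLC cells, and nothing states whether each library came from 1 mouse or from pooled tumours. The comparison asks what changes in cancer cells that grew beside BMSCs.

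Members of the family are switched on in different ways. Irf1 is made anew after interferon-gamma signals and activates its targets, whereas Irf2 is constitutive and can hold the same DNA sites as a repressor. Irf3 is present in resting cells and waits in the cytoplasm until the kinases TBK1 and IKKε phosphorylate it, while Irf7, phosphorylated by the same kinases, is itself an interferon-induced gene and amplifies the type I interferon response. Irf5 acts below Toll-like receptors, Irf8 drives monocyte and dendritic cell development with PU.1 (Spi1), and Irf4 works mainly in lymphocytes and in some macrophages.

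The promoters differ in the elements through which interferons act on these genes. RefSeq windows of 300 bases (250 before to 50 after the annotated start, GRCm38.p6) were held for all 7 genes, 9 windows in all, and both strands were searched for the gamma-activated site TTCNNNGAA (bound by STAT dimers) and the core of the interferon-stimulated response element (GAAA, any 2 bases, GAAA, bound by IRFs and by the STAT complex that holds Irf9). The stretches that held matches are shown because STAT proteins and IRFs are known to bind such letters, and capitals mark the matches, which are a description and not sites shown to be bound.

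Irf1, gamma-activated site, chr11:53769899-53769957, + strand: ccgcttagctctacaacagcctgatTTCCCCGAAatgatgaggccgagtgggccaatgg
Irf8, 2 gamma-activated sites, chr8:120736162-120736238, + strand: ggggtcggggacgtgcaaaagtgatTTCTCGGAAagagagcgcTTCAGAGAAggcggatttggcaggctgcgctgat
Irf2, response element core then gamma-activated site, chr8:46739495-46739554, + strand: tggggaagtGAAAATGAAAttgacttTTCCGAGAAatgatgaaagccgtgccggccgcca

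The gamma-activated site of Irf1 lay at bases -90 to -82 from the start, the pair in Irf8 at -171 to -163 and -153 to -145, and that of Irf2 at -224 to -216, after its response element core at -241 to -232. The letters of a gamma-activated site were held by 3 of the 7 genes and by 8.30% of all 32851 windows. The response element core was held by 1 of the 7, Irf2, and by 3.44% of all windows. The 7 are counted by gene over their 9 windows, whereas the percentages are by single window, so they are not like for like. Irf3, Irf4, Irf5 and Irf7 held neither of these in their windows, from which nothing follows about the factors. Of the 3 genes with such letters, Irf1 and Irf8 were higher beside BMSCs and Irf2 did not pass the test.

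Estimated counts on genes summed to 33476347 to 46189113 fragments per library, and 13353 genes passed the filter on low counts. The groups differed over much of the transcriptome: 62.9% of tested genes had an adjusted p under 0.05 (edgeR's quasi-likelihood test, Benjamini-Hochberg over all tested genes), split between 31.5% higher and 31.3% lower beside BMSCs. In each group a pair of libraries lay closer to each other than to the remaining one (mean chi-square per gene of 4.79 and 3.03, against 19.1 to 60.4 for the other pairs), and LLC alone replicate 3 stood apart with its own trend over gene length, which at the length of Irf7 was 0.17 on the log2 scale, against -0.08 to 0.03 in the other 5 libraries. Nothing in the labels says that replicates are separate tumours, so p-values measure only the spread between these libraries, which may be technical.

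Beside BMSCs, 4 IRF genes rose, 0 fell and 2 did not pass the test, of the 6 that could be tested. Irf7 rose most, followed by Irf5, Irf1 and Irf8, each by more than 4-fold. Against this, 31.5% of all tested genes were called higher, and 4.01% were called higher with a log2 fold change of at least 2, as all 4 of these were. Irf5 and Irf8 had only 7 to 14.43 and 5 to 11 counts in LLC alone. They passed the filter on low counts through the libraries with BMSCs, so they could hardly be tested without being higher there. With at least 10 counts in every library, 4 IRF genes were tested and 2 rose. Irf2 and Irf3 had small differences, and Irf4 had almost no counts in either group. In RNA from a pool of sorted cells, fewer expressing cells and less RNA per cell cannot be told apart.

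**Figure D1:**
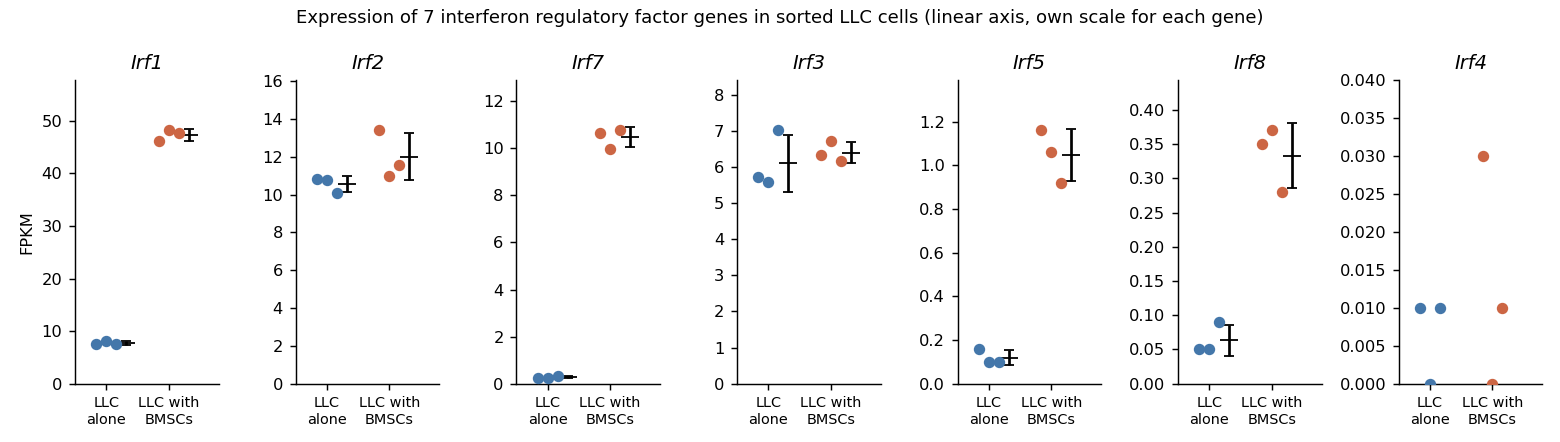
FPKM of each IRF gene (vertical axes, linear, a separate scale per gene) in LLC alone (blue) and LLC with BMSCs (orange); points are the 3 libraries in order of replicate number, and bars are mean ± SD, left out for Irf4. The groups lie far apart for Irf1, Irf7, Irf5 and Irf8, close together without overlap for Irf2, and overlap for Irf3 and Irf4.

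Irf1, the activator that drives antigen presentation and guanylate-binding protein genes (chr11:53770014-53778374, GRCm38.p6), stood at 7.57, 8.18 and 7.63 FPKM in LLC alone replicates 1 to 3 and at 46.12, 48.18 and 47.65 FPKM in LLC with BMSCs replicates 1 to 3. The libraries of a group were close, and the lowest library with BMSCs was far above the highest without. Its mean level rose 6.07-fold, from 7.79 ± 0.336 to 47.3 ± 1.07 FPKM (SD, n = 3). In the count test the log2 fold change was 2.58 (SE 0.061; 95% confidence interval 2.44 to 2.72; adjusted p = 1.02e-07, edgeR), on 570 to 732 counts per library alone and 4278 to 4417 beside BMSCs. Irf1 ranked 28th of 13353 genes by p and 410th by fold change. Its level exceeded that of 61.5% of the 18182 genes in LLC alone and of 90.2% in LLC with BMSCs.

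Irf2, the constitutive factor that binds the same sites as Irf1 (chr8:46739745-46847458), stood at 10.83, 10.80 and 10.08 FPKM in LLC alone and at 13.40, 11.01 and 11.59 FPKM in LLC with BMSCs. The FPKM ranges did not overlap (by normalized count, 36.7% of all tested genes had every library with BMSCs above every library of LLC alone), but the gap between them was smaller than the spread among the libraries with BMSCs, of which replicate 1 was highest. The log2 fold change was 0.16 (SE 0.085; 95% confidence interval -0.03 to 0.36; adjusted p = 0.126, edgeR). Irf2 passed the test once the trend over gene length was removed from each library, at a log2 fold change of 0.21 (adjusted p = 0.0433, edgeR), and its value fell to 0.07 without LLC with BMSCs replicate 1.

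The order of this activator and repressor differed between the groups. Per length, Irf1 was below Irf2 in every library of LLC alone, with an Irf1 to Irf2 ratio of FPKM of 0.699, 0.757 and 0.757, and above it in every library with BMSCs, with 3.44, 4.38 and 4.11. The mean ratio went from 0.738 ± 0.0336 to 3.98 ± 0.482 (SD, n = 3), a difference of 2.42 on the log2 scale. All 3 libraries with BMSCs lay above all 3 without, which gives the exact permutation test its smallest two-sided p of 0.1 for 3 against 3.

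Irf7, the interferon-induced amplifier (chr7:141263183-141266499), was close to silent in LLC alone, at 0.25, 0.25 and 0.34 FPKM, and stood at 10.67, 9.99 and 10.76 FPKM beside BMSCs. The counts behind these levels were 19, 15 and 25 against 813, 752 and 785, so that the low group lay above the floor of 3 counts in each library. Its mean rose 37.4-fold, from 0.28 ± 0.0520 to 10.5 ± 0.421 FPKM (SD, n = 3), and the log2 fold change was 5.21 (SE 0.12; 95% confidence interval 4.94 to 5.49; adjusted p = 1.02e-07, edgeR). Irf7 ranked 18th of the 13353 tested genes by p and 178th by fold change. Over 16 alternatives its log2 fold change lay between 3.16 and 5.36, the lowest on the log2(FPKM + 1) scale, which understates the change of a low gene.

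Irf3, the latent factor that needs phosphorylation and not new synthesis to act (chr7:44997648-45002848), stood at 5.71, 5.58 and 7.01 FPKM in LLC alone and at 6.32, 6.71 and 6.15 FPKM in LLC with BMSCs. The groups overlapped, since LLC alone replicate 3 was the highest of all 6 libraries. The log2 fold change was 0.13 (SE 0.097; 95% confidence interval -0.10 to 0.35; adjusted p = 0.276, edgeR). Without LLC alone replicate 3 it was 0.24 and passed the test (adjusted p = 0.00994, edgeR), and with the length trend removed it was 0.20 (adjusted p = 0.0424, edgeR). Its phosphorylation was not measured by these data. Exons of Irf3 share 88 of their 3442 bases with Bcl2l12 on the other strand in GENCODE M21, and the strand setting of the counting is not given in the sources used here.

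Set beside Irf3, Irf7 went from a small fraction of its level to above it. The Irf7 to Irf3 ratio of FPKM was 0.0438, 0.0448 and 0.0485 in LLC alone and 1.69, 1.49 and 1.75 in LLC with BMSCs. Its mean went from 0.0457 ± 0.00248 to 1.64 ± 0.136 (SD, n = 3). This ratio was chosen after the values were seen and was not tested.

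Irf5, which acts below Toll-like receptors and Myd88 (chr6:29526130-29541869), stood at 0.16, 0.10 and 0.10 FPKM in LLC alone and at 1.16, 1.06 and 0.92 FPKM beside BMSCs. It rose 8.72-fold in mean FPKM, from 0.12 ± 0.0346 to 1.05 ± 0.121 (SD, n = 3), and by 3.14 on the log2 scale of the count test (SE 0.20; 95% confidence interval 2.67 to 3.60; adjusted p = 1.01e-05, edgeR). Its counts ran from 7 to 14.43 in LLC alone and from 87 to 107.42 beside BMSCs, and were not whole numbers in 3 of the 6 libraries. Irf5 shares 411 of its 2905 exonic bases with Tnpo3 on the opposite strand, an abundant nuclear import receptor gene at 42.4 ± 2.77 FPKM in LLC alone and 60.8 ± 1.33 FPKM beside BMSCs (SD, n = 3). How far reads of Tnpo3 enter the Irf5 values was not tested.

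Irf8, the factor of monocyte and dendritic cell development (chr8:120736358-120756694), had 7, 5 and 11 counts in LLC alone and 43, 46 and 34 in LLC with BMSCs. These were 0.05, 0.05 and 0.09 FPKM against 0.35, 0.37 and 0.28 FPKM, with no overlap. The mean rose 5.26-fold, from 0.0633 ± 0.0231 to 0.333 ± 0.0473 FPKM (SD, n = 3), and the log2 fold change was 2.31 (SE 0.26; 95% confidence interval 1.70 to 2.92; adjusted p = 0.00018, edgeR). Even after this rise the level of Irf8 exceeded that of only 33.8% of the genes in the tables, against 24.8% in LLC alone.

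Irf4, the lymphocyte factor (chr13:30749233-30766981), had 2, 0 and 2 counts in LLC alone and 7, 0 and 2 counts in LLC with BMSCs, at 0 to 0.03 FPKM. Only 1 library exceeded 3 counts, the upper limit that a count of 0 allows, so a difference was not detectable at this depth and no fold is given. Irf4 did not pass the filter on low counts.

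In LLC alone the order of FPKM levels was Irf2, Irf1, Irf3, Irf7, Irf5, Irf8 and Irf4, from highest to lowest, and in LLC with BMSCs it was Irf1, Irf2, Irf7, Irf3, Irf5, Irf8 and Irf4. Within each group no neighbours in the order overlapped over the 3 libraries, although the lowest Irf5 value of LLC alone, 0.10 FPKM, was close to the highest Irf8 value, 0.09 FPKM. Irf1 and Irf2 changed places, as did Irf3 and Irf7. Together the 7 genes summed to 24.6 to 25.3 FPKM per library in LLC alone and to 77.3 to 78.1 FPKM beside BMSCs. Of these sums Irf1 held 31.3 ± 1.34% in LLC alone and 61.0 ± 1.69% in LLC with BMSCs (SD, n = 3). The share of Irf7 went from 1.12 ± 0.195% to 13.5 ± 0.516%, and that of Irf2 from 42.4 ± 2.21% to 15.5 ± 1.52%. The share of Irf3 went from 24.4 ± 2.90% to 8.24 ± 0.385%, although the levels of Irf2 and Irf3 did not pass the main test and passed only in the alternatives given above.

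The authors also deposited a level for each transcript, which divides the reads of a gene among its forms. For Irf1 the transcript NM_008390 held 94.8% to 99.4% of the gene's FPKM in LLC alone and 98.6% to 99.6% beside BMSCs, and Irf2, Irf4 and Irf8 had 1 transcript each. Irf3 was spread over NM_016849, at 4.67 ± 0.762 FPKM in LLC alone and 3.89 ± 0.465 FPKM beside BMSCs (SD, n = 3), and a pair of transcripts that the authors' pipeline assembled. NM_016849 held 73.3% to 78.9% of Irf3 in LLC alone and 57.8% to 66.0% beside BMSCs, so its share was lower in all 3 libraries with BMSCs, while the gene as a whole overlapped between groups. No test was made on transcripts.

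Irf7 had 5 transcripts, all of which stood higher in each library with BMSCs than in any of LLC alone. NM_016850 was at 0, 0.25 and 0 FPKM in LLC alone and at 4.26, 3.69 and 2.33 FPKM beside BMSCs. NM_001252601 was listed at 0 in all 3 libraries of LLC alone and at 2.18, 2.45 and 2.71 FPKM beside BMSCs. The mix varied more than the gene total did: an assembled transcript held 1.66 and 1.34 FPKM in LLC with BMSCs replicates 1 and 2 and 3.38 FPKM in replicate 3. For Irf5, NM_001252382 was listed at 0 in LLC alone and at 0.83, 0.87 and 0.29 FPKM beside BMSCs, whereas NM_012057 was at 0.08, 0.10 and 0.10 FPKM and at 0.06, 0.07 and 0.64 FPKM. Replicate 3 thus had most of its Irf5 in a different transcript from replicates 1 and 2, with the gene total nearly the same, and which form carried the rise of Irf5 was not settled by these libraries.

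**Figure D2:**
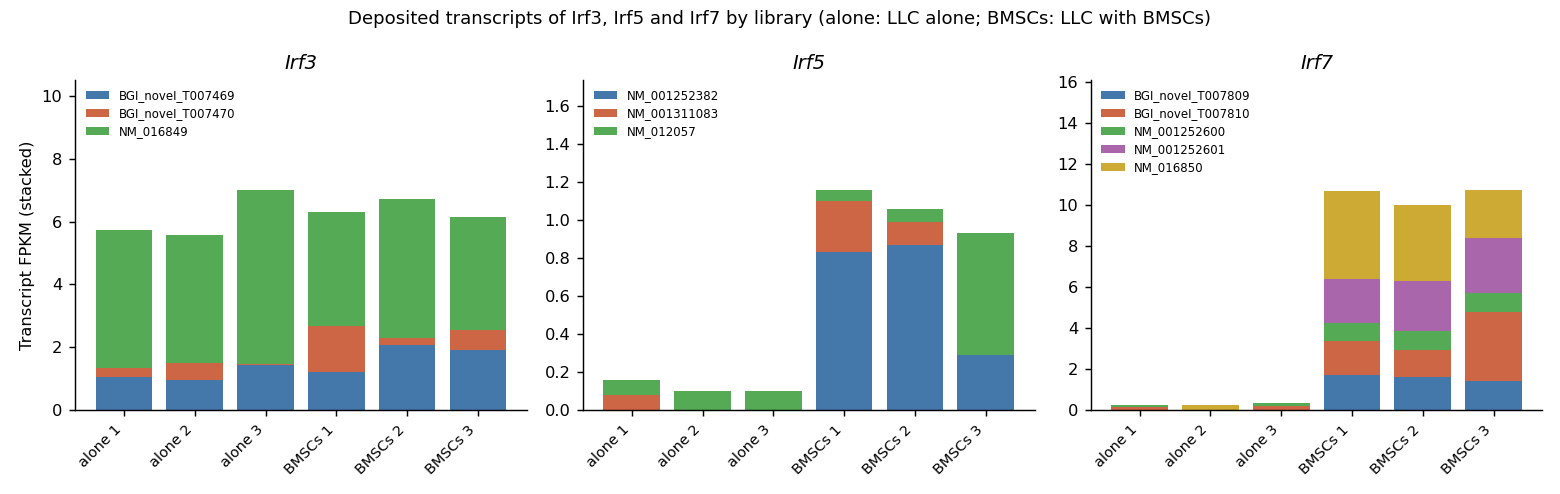
Stacked FPKM (vertical axes, linear, starting at 0, a separate scale per gene) of the deposited transcripts of Irf3, Irf5 and Irf7 in each of the 6 libraries; colours are transcripts. The Irf7 totals beside BMSCs agree within 9.99 to 10.76 FPKM while the transcripts within them differ, and Irf5 of LLC with BMSCs replicate 3 is mostly NM_012057 at 0.64 FPKM.

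The genes that lie above IRF proteins changed unevenly. Of the 20 sensors, adaptors and kinases listed, all tested, 11 rose, 5 fell and 4 did not pass, and their log2 fold changes had a median of 0.34 against 0.01 over all tested genes, of which 31.5% were called higher and 31.3% lower. The RNA sensor gene Ddx58 (RIG-I) rose by 2.70 on the log2 scale (SE 0.059), from 4.17 ± 0.147 to 27.4 ± 0.382 FPKM (SD, n = 3), and Ifih1 (MDA5) by 3.89 (SE 0.14), from 0.0767 ± 0.0115 to 1.06 ± 0.0153 FPKM. Among the kinases that phosphorylate Irf3 and Irf7, Ikbke (IKKε) rose by 3.00 (SE 0.084), from 1.21 ± 0.0971 to 9.91 ± 0.413 FPKM, whereas Tbk1 rose by 0.30 (SE 0.058), from 20.7 ± 0.776 to 25.9 ± 0.809 FPKM, and stayed the more abundant. Tlr3, the endosomal double-stranded RNA receptor, rose by 0.96 (SE 0.11). The 5 that fell, named after their values were seen, were Tlr4 by 0.81, its adaptor Ticam1 by 0.53, the RIG-I adaptor Mavs by 0.31, the kinase gene Chuk by 0.24 and the Toll-like receptor adaptor Myd88 by 0.23, all on the log2 scale.

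The interferon genes themselves had few or no counts. Of 21 listed type I, II and III interferons, 6 were among the genes in the tables and 1, Ifnz, was tested, with a log2 fold change of 0.44 that did not pass (adjusted p = 0.19, edgeR). Ifng, an inducer of Irf1 in textbook accounts, had 0 counts in all 3 libraries of LLC alone and 4, 1 and 0 beside BMSCs. The summed level of the list was 0.314 to 0.489 CPM (counts scaled to a common library total) in LLC alone and 0.388 to 0.681 CPM in LLC with BMSCs, which overlap. Poly-A RNA of the sorted cells does not measure interferon made by other cells of the tumour.

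The receptors and the kinases and STATs below them moved mostly upward. Of 10 tested genes of this list 9 rose and 0 fell, their median was 0.65 on the log2 scale, and Il10rb at 0.11 did not pass. The call of Jak1, at 0.27 on the log2 scale, was lost in 5 of 16 alternatives. Over all tested genes 31.5% were called higher and 31.3% lower. Stat2, a part of the complex that binds interferon-stimulated response elements, rose by 3.58 on the log2 scale (SE 0.067), with 1.82, 1.78 and 1.69 FPKM in LLC alone and 22.19, 20.59 and 21.31 FPKM beside BMSCs. The interferon-gamma receptor chain Ifngr2 rose by 1.14 (SE 0.062) and Jak2 by 0.70 (SE 0.069). Adjusted p-values of these 3 genes ran up to 8.68e-05 (edgeR).

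Of 18 partners and modifiers of IRF proteins, 17 were tested, of which 9 rose, 2 fell and 6 did not pass, and the median log2 fold change was 0.17. The 11 called are near the share of 62.9% called over all tested genes, and with close pairs of libraries summed only 6 of the list rose. Usp18, which removes ISG15 and dampens interferon receptor signals, rose by 5.02 on the log2 scale (SE 0.18), Trim21, a ubiquitin ligase of IRF proteins, by 1.28 (SE 0.078), the ISG15-conjugating enzyme gene Ube2l6 by 0.79 (SE 0.063) and the transcription factor gene Ets1 by 0.71 (SE 0.092). Irf2bp1, a corepressor of Irf2, fell by 0.40 (SE 0.082). Spi1, the DNA-binding partner of Irf4 and Irf8, had 0, 0 and 3 counts in LLC alone and 53, 25 and 43 beside BMSCs, which made it at least 12.3-fold higher against a floor of 3 counts per library.

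Genes known to be bound by IRF proteins rose together. All 18 genes on the list of genes with interferon-stimulated response elements rose, with a median of 3.84 on the log2 scale, where 31.5% of all tested genes were called higher. The 4 named by size were Oasl2, from 0.0567 ± 0.00577 to 12.2 ± 0.308 FPKM (7.76 on the log2 scale, SE 0.10), Ifi44 (7.08, SE 0.30), Parp14 (6.52, SE 0.11) and Rtp4 (6.15, SE 0.20). In LLC alone replicates 1 to 3, Oasl2 had 8, 5 and 8 counts and Ifi44 2, 0 and 4. Such genes passed the filter on low counts only through the libraries with BMSCs, where they are high. With at least 10 counts in every library, 11 genes of the list were tested and all 11 rose, with a median of 2.38. Of the 13 genes of this list with a promoter window, 7 held the letters of the response element core. Those letters were held by 3.44% of all windows, a share by single window and not by gene, so not like for like. The list was drawn up with earlier results of these data known, so that its direction is a description and not independent support.

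Of 17 genes known to depend on Irf1, 15 were tested, of which 13 rose and 2 fell, and the median was 2.16 on the log2 scale. The shares over all tested genes were 31.5% higher and 31.3% lower. The guanylate-binding protein gene Gbp3 rose by 7.48 (SE 0.16) and Gbp2 by 6.75 (SE 0.14), the latter from 0.19 ± 0.0608 to 21.4 ± 1.21 FPKM (SD, n = 3). In LLC alone replicates 1 to 3, Gbp3 had 9, 5 and 4 counts. Gbp5, also among the 13 that rose, had 1, 0 and 0. Both passed the filter on low counts only through the libraries with BMSCs, where they are high. The immunoproteasome subunit genes Psmb9 and Psmb8, which trim peptides for MHC class I, rose by 3.24 (SE 0.14) and 2.87 (SE 0.070). The 2 that fell, the inflammatory caspase genes Casp4 by 0.59 and Casp1 by 0.25, both on the log2 scale, are known as Irf1 targets in macrophages. The call of Casp1 was lost in 12 of 16 alternatives. With at least 10 counts in every library, 13 genes of the list were tested, of which 11 rose and 2 fell. Their median was lower than the 2.16 of the main test.

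**Figure D3:**
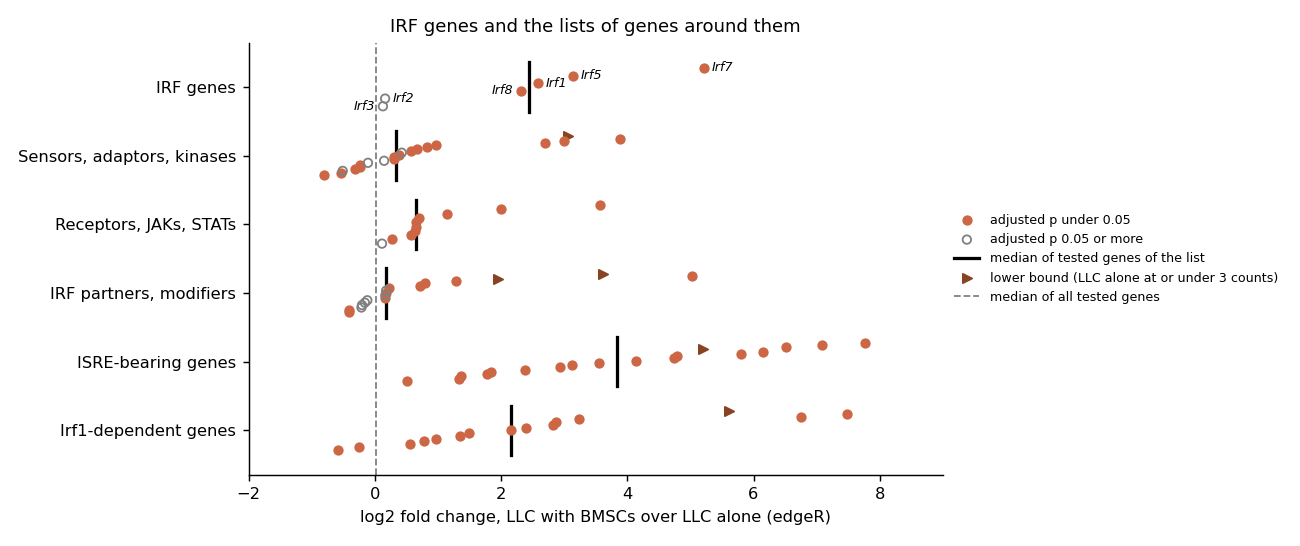
Log2 fold change of LLC with BMSCs over LLC alone (horizontal axis, edgeR) for each tested gene of 6 lists; filled points have an adjusted p under 0.05, open points do not, triangles are lower bounds for genes at or under 3 counts in every library of LLC alone, and black lines are list medians. Irf7 lies at 5.21, Irf2 and Irf3 lie near the dashed line at 0.01, the median of all tested genes, and the ISRE-bearing genes all lie to its right.

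By a distance between patterns over the 6 libraries (Euclidean, on log2 CPM centred on each gene's mean, over 10594 other genes with a symbol and at least 100 normalized counts on average), the nearest genes to Irf1 were Irgm1 at 0.112, Plau at 0.118 and Ddx58 at 0.182. Those nearest to Irf7 were Mmp9 at 0.254, Xaf1 at 0.284 and Col7a1 at 0.315. For Irf2 they were Syvn1 at 0.0654, Brat1 at 0.0768 and Trim26 at 0.0806, and for Irf3 Hras at 0.0661, Msrb1 at 0.0755 and Timp1 at 0.0763. The points are 6 libraries in 2 groups, so these distances mostly rank genes by how nearly their group difference equals that of the IRF gene.

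Because Irf5, Irf8, Irf4 and Spi1 are known from blood cells, marker lists of other cell types were read in the same libraries. The macrophage and monocyte list summed to 24.8 to 29.4 CPM in LLC alone and 38.4 to 41.4 CPM beside BMSCs, and of its 11 tested genes 8 rose, 2 fell (Cd68 and Cx3cr1) and 1 did not pass. Over all tested genes 31.5% were called higher and 31.3% lower. Genes of this list with hardly any counts in LLC alone passed the filter only through the libraries with BMSCs. With at least 10 counts in every library, 4 macrophage and monocyte genes were tested, of which 2 rose and 1 fell. The 3 genes of the list with the highest FPKM differed in direction. Cd14 went from 9.49 to 10.1 FPKM in the mean and did not pass, Cd68 fell from 5.55 to 3.03 FPKM, and Lyz2 rose from 3.08 to 4.71 FPKM. Steeper rises were seen in genes with few counts in LLC alone: Adgre1 (F4/80) had 0 counts in all 3 libraries of LLC alone and 60, 79 and 63 beside BMSCs, Itgam had 0, 0 and 5 against 241, 231 and 240, and Csf1r had 18, 13 and 22 against 101, 80 and 84. C1qa, C1qb, C1qc, Aif1 and Ccr2 had 0 to 6 counts in every library of both groups. The neutrophil list summed to 0.469 to 0.789 CPM and 21.2 to 24.0 CPM, with 7 of 7 tested genes higher, led by S100a9 with 0, 1 and 0 counts against 434, 421 and 522. However, 6 of these 7 had at most 3 counts in every library of LLC alone. Such genes pass the filter only through the group where they are high, so this tally of directions carries little. With at least 10 counts in every library, 1 gene of the list was tested, and it rose.

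The dendritic cell list summed to 10.2 to 11.0 CPM in LLC alone and 13.3 to 13.9 CPM beside BMSCs (2 of 5 tested genes higher and 1 lower, against 31.5% and 31.3% of all tested genes). The B and plasma cell list summed to 11.9 to 14.5 CPM and 15.0 to 18.2 CPM, nearly all of it Pax5. The T and NK cell list summed to 0.390 to 0.568 CPM and 0.340 to 0.539 CPM, with 0 of 1 tested genes called. The mesenchymal stromal list summed to 361 to 429 CPM and 800 to 847 CPM, with 10 of 10 tested genes higher, where 31.5% of all tested genes were called higher. Among them was Col1a1 with 2, 4 and 4 counts against 586, 499 and 477. Such a gene passes the filter only through the group where it is high. With at least 10 counts in every library, 7 stromal genes were tested and all 7 rose. Leaving out each library gave 8 to 10 higher of 10 tested. The part of other cells in the rise of Irf1, Irf5, Irf7 and Irf8 was not tested. The carcinoma list summed to 157 to 177 CPM and 189 to 197 CPM, nearly all of it Krt8. Of its tested genes 2 of 2 were higher, where 31.5% of all tested genes were called higher. Only 1 was called with upper-quartile scaling and with close pairs of libraries summed. The same held with any library but LLC alone replicate 3 left out. With at least 10 counts in every library, only 1 was tested, and it rose. Krt8 rose by 0.19 on the log2 scale, and the scarce Krt18 by 2.91, from a mean of 4.86 to 37.1 normalized counts. Epcam, Cdh1, Krt7 and Krt19 had 0 to 5 counts in each of the 6 libraries, at or near the floor of 3, so that these 4 epithelial markers were all but absent from the sorted cells of both groups.

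**Figure D4:**
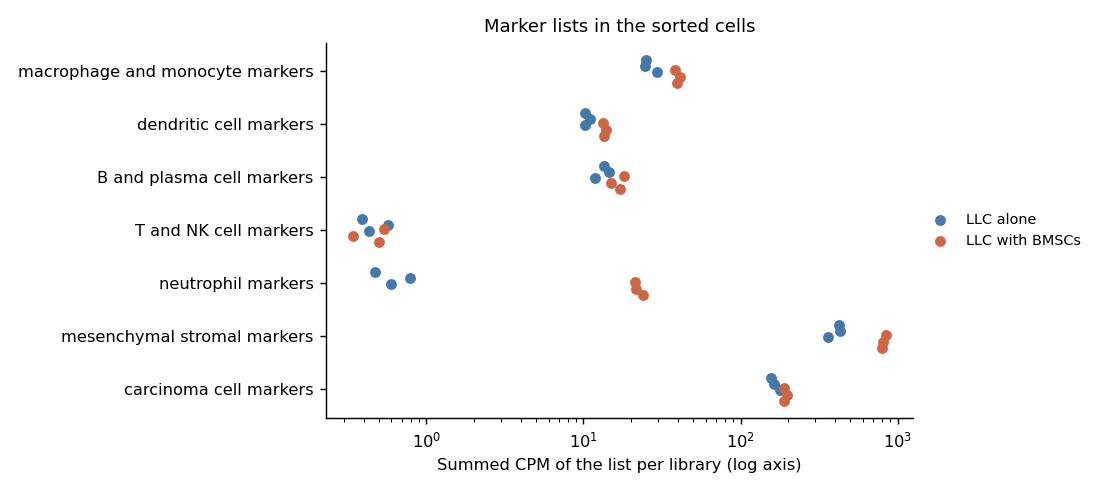
Summed CPM of 7 marker lists (horizontal axis, log scale) in each library of LLC alone (blue) and LLC with BMSCs (orange). The neutrophil list lies at 0.469 to 0.789 CPM against 21.2 to 24.0 CPM, the stromal list at 361 to 429 CPM against 800 to 847 CPM, and the T and NK cell list overlaps between groups.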

How the data were processed

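Per the labels, each library was RNA from red fluorescent LLC cells sorted from primary tumours, with 3 libraries in each of 2 groups. The study's methods give oligo-dT selection and BGISEQ-500 sequencing, whereas the labels name Illumina protocols. The submitters' processing notes name HISAT, StringTie, Cufflinks, GATK and the build mm8; the counting program, its versions and strand setting are not given in the sources used here. The files deposited by the authors hold estimated counts for genes and transcripts, in which shared reads are divided so that values need not be whole, and FPKM, scaled by length and library total. Their gene lengths were used only for the alternative that removes a trend over length.

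Estimated counts were rounded and tested with edgeR 4.0.16 in R 4.3.3 (TMM, filterByExpr, quasi-likelihood F test, two-sided, Benjamini-Hochberg adjustment over 13353 genes, threshold 0.05), without covariates. The biological coefficient of variation was 9.92%. The SE was obtained from the size of the log2 fold change over the root of the F statistic, and CPM times the mean effective library size gave normalized counts. Levels between genes were compared in FPKM only. The floor was 3 counts per library, which covers counting error only; at 33476347 to 46189113 fragments it lies at 0.0650 to 0.0896 CPM. On counts simulated from these libraries (13163 genes, of which 200 were changed 2-fold), edgeR found 198 of the 200 and made 6 false calls. The simulation differed from the data, in which 62.9% of tested genes were called. Its changed genes were drawn from better covered genes only, and its libraries varied independently, without close pairs. It therefore checks the running of the test and does not give the error rate of the calls made here.

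The IRF genes and the gene lists were chosen with earlier results of these data known. From each pathway list up to 4 genes were named, those with the largest absolute log2 fold change among genes with at least 100 normalized counts on average, plus Stat2, Tbk1, Ikbke and others fixed by name; some items are not reported here, and other genes named from a list were chosen after their values were seen. No set test was run. Symbols of 27 genes stored as dates were restored from gene identifiers, and 1151 of the 18182 genes have no symbol. Gene positions, promoter windows and their sequences are those of RefSeq (GRCm38.p6) and exon overlaps those of GENCODE M21, since the files give no coordinates. Same-numbered replicates did not deviate together (correlations of 0.0762, -0.106 and 0.0572 of deviations from the group means), so no pairing was assumed. Alternatives were other scalings, DESeq2 1.42.0, limma 3.58.1 on log2(FPKM + 1) and log2(FPKM + 0.1), other filters, each library left out, a replicate block, removal of the length trend and summing of the close pairs of libraries.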

Additional observations from a re-analysis of the deposited data

How the results depend on the processing

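Over 16 alternatives no IRF gene changed direction. The log2 fold change of Irf1 lay between 2.46 and 2.67 and that of Irf7 between 3.16 and 5.36, and both passed the test in all 16. Irf5 (3.05 to 3.34) and Irf8 (2.18 to 2.59) passed in the 13 alternatives that tested them. The count of IRF genes that rose was 2 and not 4 with at least 10 counts in every library and with limma on log2(FPKM + 1) or log2(FPKM + 0.1), because these filters leave out Irf5 and Irf8. Leaving out each library gave 4 to 5 IRF genes higher, the 5th being Irf3 without LLC alone replicate 3, and removal of the length trend gave 6.

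With the replicate block, 4 IRF genes rose and 0 fell, as without it. Among the lists, the block gave 1 and not 2 Irf1-dependent genes that fell, 7 higher and 3 lower and not 9 and 2 of IRF partners and modifiers, and 1 and not 2 carcinoma markers higher, and the same counts for the others. The count of Irf1-dependent genes that fell was also 1 with library size without TMM, DESeq2, limma on either FPKM scale and the length trend removed, and 1 to 3 with each library left out (1 without LLC alone replicate 3 or LLC with BMSCs replicate 2 or 3, and 3 without LLC alone replicate 2). Of IRF partners and modifiers, the count that fell was 4 with upper-quartile scaling, 5 with the length trend removed and 2 to 4 with each library left out (4 without LLC alone replicate 3), against 2, and the count that rose was 6 to 9 over the 16 alternatives, against 9. Of sensors, adaptors and kinases, 2 and not 5 fell with close pairs of libraries summed. Of genes with response elements, 11 and not 18 rose with at least 10 counts in every library, since fewer were tested. Where no construction is named, the cause was not tested. Depth limits Irf4, Irf8 and Irf5 in LLC alone.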
